A study of Mus musculus with 3 samples.

Results

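LYVE-1 macrophages of 3 mammary tumours were described from single-cell UMI counts, a UMI (unique molecular identifier) standing for a single captured transcript. Barcodes under 500 genes or above 15% of UMIs from mitochondrial genes were left out. A kept cell was taken as a LYVE-1 cell when it had at least 1 UMI of Lyve1 and at least 1 UMI of Cd163 or Timd4, and 474 of 9749 kept cells met this rule. They were set against the 8204 kept cells with no UMI of any of the 3 genes, called rule-negative cells here. Another 249 cells had Lyve1 without Cd163 and Timd4 (Lyve1-only cells) and 822 had Cd163 or Timd4 without Lyve1 (Cd163/Timd4-only cells). The counts of Lyve1, Cd163 and Timd4 thus chose the cells, and these 3 genes are described and were not tested.

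The cells came from 3 individual FVB/N-Tg(MMTVPyVT)634Mul/J mice, in which the polyoma middle T oncogene is driven by the MMTV promoter, active in the mammary epithelium, and mammary adenocarcinomas arise. Each mouse gave a tumour of 750 mm3, which was digested with collagenase, and sorted for CD45+ Ly6G- CD11b+ F4/80+ cells, which were sequenced with the 10x Genomics 3' v3 kit. All 3 libraries belonged to 1 group, with no untreated, normal or other tissue beside them, so every comparison was between classes of cells of the same 3 mice. The sort limits the cells to those with CD11b and F4/80 on the surface, and neither the protein LYVE-1 nor the origin of the cells was measured.

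Macrophages that settle in tissues and those recruited from blood monocytes both populate tumours. LYVE-1 is a receptor for the matrix sugar hyaluronan, first known from lymphatic vessels and also carried by macrophages that lie along blood vessels in many tissues. CD163 takes up haemoglobin bound to haptoglobin, TIM-4 (Timd4) binds phosphatidylserine on dying cells, and the folate receptor FOLR2 is commonly used with them to mark resident-type macrophages. Such macrophages are known for clearing dying cells and debris and for secreting chemokines and growth factors.

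LYVE-1 cells made up 7 of 663, 123 of 2108 and 344 of 6978 kept cells of mice 1, 2 and 3, that is 1.06%, 5.83% and 4.93% (exact Clopper-Pearson 95% intervals 0.426 to 2.16%, 4.87 to 6.92% and 4.43 to 5.46%). The mean share was 3.94% ± 2.54 (SD, n = 3 mice), and it was 5.38% without mouse 1, whose interval lay below those of the other mice. The intervals cover counting error only. LYVE-1 cells held more UMIs than rule-negative cells in each mouse, with medians of 16436, 39469 and 17573.5 UMIs against 14888, 12518 and 9059.5. Summed UMIs were 117845, 5078019 and 7956307 in LYVE-1 cells, against 9209336, 25761964 and 64730922 in rule-negative cells. The share of LYVE-1 cells differed by depth in mice 2 and 3. In cells of 10000 to 20000 UMIs it was 3.30% in mouse 2 and 3.16% in mouse 3, and in cells of 40000 UMIs or more it was 26.9% and 27.1%, while mouse 1 had 1.07% and 0 of 31 cells in these bins. A rule that needs a UMI of sparse genes takes deeper cells more often, and the part of depth in these shares was not tested. Mice 2 and 3 shared 8 barcodes, 7 of them kept, and 0 of these were LYVE-1 cells in both libraries. No doublet caller was run: 0, 13 and 101 LYVE-1 cells lay among the 6, 42 and 415 kept cells with the most UMIs of mice 1, 2 and 3.

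**Figure D1:**
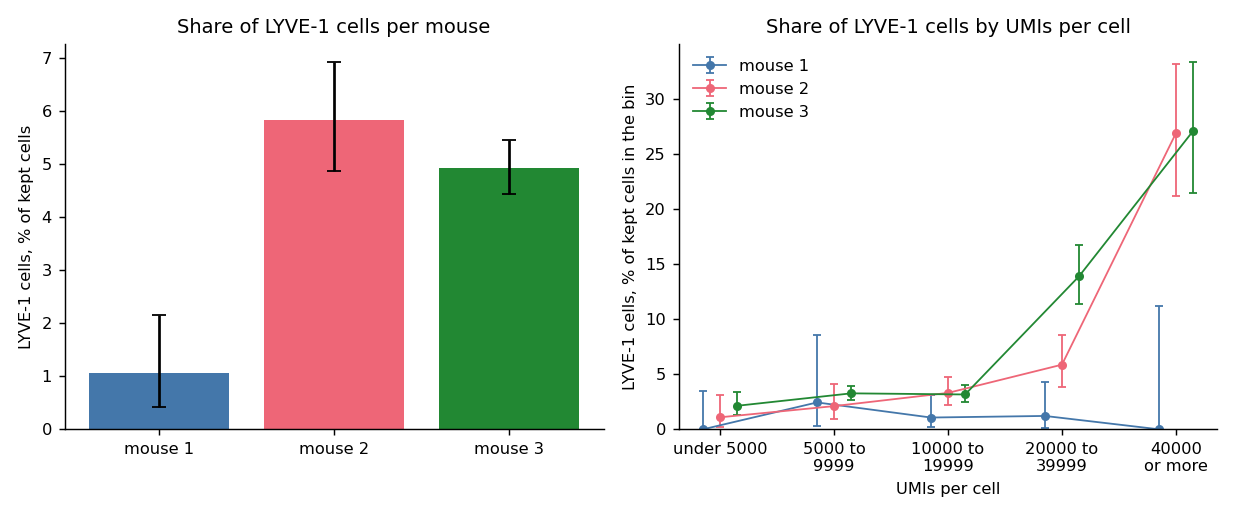
Share of LYVE-1 cells among kept cells of each mouse (left, bars, % of kept cells) and within bins of UMIs per cell (right, points, % of kept cells of the bin), with exact 95% intervals as error bars. The share was 1.06%, 5.83% and 4.93% in mice 1, 2 and 3, and in cells of 40000 UMIs or more it was 26.9% in mouse 2 and 27.1% in mouse 3.

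Lyve1 (chr7:110850607-110863239, minus strand, build mm10) counted 1 UMI in 128, 2 to 4 UMIs in 166 and 5 UMIs or more in 180 of the LYVE-1 cells, with a maximum of 45. Cd163 (chr6:124304656-124330527, plus strand) without Timd4 was found in 233 of them, Timd4 (chr11:46810800-46844332, plus strand) without Cd163 in 91, and both in 150. The level of Lyve1 over the summed UMIs of LYVE-1 cells was 339, 122 and 223 UMIs per 1000000 UMIs (CPM) in mice 1, 2 and 3, that of Cd163 552, 77.8 and 171 CPM and that of Timd4 59.4, 28.9 and 32.3 CPM. At 10000 to 20000 UMIs, Cd163 or Timd4 had a UMI in 60.0%, 90.0% and 53.5% of cells with Lyve1 (5, 30 and 129 cells), against 10.9%, 8.13% and 6.43% of cells without Lyve1 (276, 787 and 2053 cells). At 40000 UMIs or more it had one in 0 of 2, 61 of 73 and 62 of 84 cells with Lyve1, against 11 of 29, 77 of 154 and 53 of 145 cells without, so the order was the other way in the 2 cells of mouse 1. In a background of 30 epithelium-like cells, chosen by keratins, Epcam and Cdh1 without Csf1r and with a median of 4537.5 UMIs, 1 cell had a Lyve1 UMI and 0 had Cd163 or Timd4, which allows shares of up to 10.0%.

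At the minimum of the rule stood 49 LYVE-1 cells with 1 Lyve1 UMI and 1 UMI of Cd163 or Timd4. They were set beside the 144 Lyve1-only cells with 1 Lyve1 UMI and the 498 Cd163/Timd4-only cells with 1 UMI of those genes. Over the cells of all mice, Folr2 stood at 204 CPM beside 207 and 156 CPM. It had 122, 126 and 122 CPM in mouse 2, and 270, 234 and 169 CPM in mouse 3. Fcna, the gene of the plasma lectin ficolin A, stood at 47.6 CPM beside 32.8 and 15.6 CPM over all mice. It had 16.1, 14.7 and 14.5 CPM in mouse 2, and 70.7, 39.8 and 15.7 CPM in mouse 3. Mouse 1 gave 1 cell at the minimum. The median depths of these cells were 22467, 11856 and 14796 UMIs.

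The cells carried the genes of the gate and of macrophages. Csf1r, the receptor that macrophages need to survive, had a UMI in 471 of 474 LYVE-1 cells (99.4%), against 95.6% of rule-negative cells. Adgre1, which encodes F4/80, stood at 246, 270.4 and 306 CPM in LYVE-1 cells of mice 1, 2 and 3, against 334, 272 and 282 CPM in rule-negative cells, and did not pass the test (log2 fold change -0.08 ± 0.11, adjusted p = 0.647 by edgeR). Folr2, a marker of the label that the rule did not use, had a UMI in 461 LYVE-1 cells (97.3%), and 13 had none. Of the genes that define lymphatic endothelium, Prox1 had 2 UMIs over all 474 LYVE-1 cells (0.152 CPM), against 11 over all 8204 rule-negative cells (0.110 CPM). Flt4 had 2 and 8 UMIs in these classes. The 6 lymphatic markers summed to 136, 34.1 and 53.3 CPM in LYVE-1 cells of mice 1, 2 and 3, against 71.9, 50.7 and 69.5 CPM in rule-negative cells. Ccl21a and Mmrn1 were at 0 UMIs in both classes and Reln at 0 in LYVE-1 cells, while Pdpn stood at 46.3 CPM in LYVE-1 cells and 64.7 CPM in rule-negative cells. Of the T cell markers, Cd3e, Cd3g and Cd8a were at 0 UMIs in LYVE-1 cells, Cd3d had 5 and Trac 2, and Cd4 stood at 10.8 CPM in LYVE-1 cells and 11.1 CPM in rule-negative cells. Of the B cell markers, Cd79a had 1 UMI in LYVE-1 cells, Cd79b stood at 8.14 CPM in LYVE-1 cells and 7.51 CPM in rule-negative cells, and Ighm at 149 and 124 CPM. Of the NK cell and neutrophil markers, Ncr1, Ly6g and S100a9 were at 0 UMIs in LYVE-1 cells, while Klrb1c had 4, S100a8 12 and Mmp8 7.

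Markers of some other cells moved with the rule. Cd209a, listed as a dendritic cell marker, had a UMI in 25.7% of LYVE-1 cells, against 1.12% of rule-negative cells, while Flt3 had 3 UMIs in LYVE-1 cells and Zbtb46 had 24. The summed level of the 6 dendritic markers was 44.9 to 119 CPM over the mice in LYVE-1 cells, against 9.81 to 40.7 CPM in rule-negative cells. The 6 epithelial markers summed to 31.1 to 52.9 CPM in LYVE-1 cells and 48.4 to 227 CPM in rule-negative cells, and the 9 vascular markers to 8.49 to 11.8 and 9.41 to 11.1 CPM, with Emcn, Tek and Plvap at 0 in LYVE-1 cells. A single LYVE-1 cell of mouse 2 held 2634 of the 2658 haemoglobin UMIs of the class. At least 2 UMIs of genes that define other lineages (22 such genes) were found in 0, 22 and 77 LYVE-1 cells of mice 1, 2 and 3. Without these cells 1185 genes were higher and 852 lower than in rule-negative cells, beside 1275 and 897 with them, and the resident programme described below had 27 higher genes and 1 lower. Over the wider marker lists, 6 of 7, 115 of 123 and 306 of 344 LYVE-1 cells had at least 2 such UMIs, against 70.1%, 69.5% and 60.2% of the shallower rule-negative cells.

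UMIs were then summed per mouse and class and tested with edgeR's quasi-likelihood test with the mouse as a block, at a Benjamini-Hochberg adjusted p under 0.05 over all 10942 genes tested. Against rule-negative cells, 1275 genes were higher in LYVE-1 cells (11.7% of the genes tested) and 897 were lower (8.2%), together 19.9% of the genes tested, with a median log2 fold change of -0.02 over all genes. Levels are given as CPM of the summed UMIs for mice 1, 2 and 3, fold changes as log2 with the standard error, and n is 3 mice throughout. Mouse 1 contributed 7 LYVE-1 cells, so its values rest on few UMIs, and values without a mouse are given where they changed a call of a named gene. The calls numbered 2599 without mouse 1, 973 without mouse 2 and 411 without mouse 3.

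LYVE-1 cells had higher levels of most genes of the resident programme: 27 of 30 tested genes of the list passed the test upwards and 0 downwards, with a median log2 fold change of 2.06. Without mouse 1, 28 were higher and 1 lower, and without mouse 3, 21 were higher, with Mgl2 and Ltc4s at adjusted p of 0.514 and 0.121. This list was drawn up with earlier results of these data known, and its direction is no independent evidence. Folr2 (chr7:101839988-101857194, minus strand) had 1001, 297 and 429 CPM in LYVE-1 cells of mice 1, 2 and 3, against 81.3, 50.8 and 78.2 CPM in rule-negative cells. LYVE-1 cells had the higher level within each mouse, and the difference passed the test (log2 fold change 2.64 ± 0.13, adjusted p = 1.05e-10). Mrc1, the mannose receptor CD206, had 1366, 918 and 824 CPM in LYVE-1 cells, against 324, 325 and 197 CPM in rule-negative cells (log2 fold change 1.72 ± 0.14, adjusted p = 8.28e-09). Cbr2, a carbonyl reductase, had 874, 277 and 595 CPM in LYVE-1 cells, against 59.7, 41.9 and 70.8 CPM in rule-negative cells (log2 fold change 2.99 ± 0.14, adjusted p = 1.17e-11). In mouse 2 its level was the lowest of the 3 mice in both classes. F13a1, the A subunit of coagulation factor XIII, had 1824, 709.5 and 833 CPM in LYVE-1 cells, against 188, 122 and 90.4 CPM in rule-negative cells (log2 fold change 2.84 ± 0.19, adjusted p = 8.32e-07).

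The steepest differences of the list lay in lectins and in a peptide receptor. Fcna (chr2:25624666-25628030, minus strand), which recognizes sugars on microbes and dying cells, had 161, 94.9 and 169 CPM in LYVE-1 cells, against 4.23, 4.77 and 6.52 CPM in rule-negative cells (log2 fold change 4.57 ± 0.15, adjusted p = 3.73e-15). Ednrb, the endothelin receptor type B, had 526, 131 and 246 CPM in LYVE-1 cells, against 15.3, 12.8 and 8.70 CPM in rule-negative cells (log2 fold change 4.19 ± 0.40, adjusted p = 7.54e-04). The C-type lectin Cd209f had 25.5, 203 and 211 CPM in LYVE-1 cells, against 3.58, 5.59 and 7.94 CPM in rule-negative cells (log2 fold change 4.77 ± 0.31, adjusted p = 8.64e-05), and the levels of mouse 1 lay below those of mice 2 and 3 in both classes. Cd209d differed by 4.54 ± 0.39 and Cd209g by 4.55 on the log2 scale. The Cd209 genes are near copies of each other on chromosome 8, and how shared reads were divided among them is uncertain. Vsig4, a complement receptor of resident macrophages, differed by 3.80 and had a UMI in 46 LYVE-1 cells of mice 2 and 3, and in 0 cells of either class in mouse 1, and it was not tested without mouse 3. The list members without a call were Slc40a1 (0.50), Fcgr4 (-0.31) and Retnla (2.17, adjusted p = 0.175 by edgeR). Without mouse 1, Fcgr4 passed downwards (-0.35) and Retnla upwards (1.26). Without mouse 3 the adjusted p of Cd209d was 0.0815 and that of Ednrb 0.129, and that of Cd209g was 0.115 and 0.180 without mice 2 and 3.

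Promoter sequences, 250 bases before to 50 after a gene's start in RefSeq (build GRCm38.p6), are shown for a gene of the rule and for 3 genes higher in LYVE-1 cells, to set their letters beside these levels. MAF and PU.1 are transcription factors of macrophages. Capitals mark matches on either strand to a short motif bound by MAF proteins, TGCTGA (reverse TCAGCA), or to a core of PU.1, AGGAAGT (reverse ACTTCCT). The sequences read 5′ to 3′ on the strand of the gene. Lyve1 is named only.
Timd4, chr11:46810549-46810848, plus strand: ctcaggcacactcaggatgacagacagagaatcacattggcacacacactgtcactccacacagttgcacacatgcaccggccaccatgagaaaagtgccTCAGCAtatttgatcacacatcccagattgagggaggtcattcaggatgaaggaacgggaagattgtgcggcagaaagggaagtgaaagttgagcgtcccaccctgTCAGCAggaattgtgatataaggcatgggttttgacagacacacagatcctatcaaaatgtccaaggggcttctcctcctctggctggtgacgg
Folr2, chr7:101857141-101857440, minus strand: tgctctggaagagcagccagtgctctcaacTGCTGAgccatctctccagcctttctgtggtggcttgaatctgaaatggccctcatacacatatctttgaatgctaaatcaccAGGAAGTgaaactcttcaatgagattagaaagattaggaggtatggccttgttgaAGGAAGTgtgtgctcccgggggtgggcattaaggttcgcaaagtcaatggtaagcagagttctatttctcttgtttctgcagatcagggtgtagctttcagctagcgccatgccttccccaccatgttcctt
Fcna, chr2:25627925-25628224, minus strand: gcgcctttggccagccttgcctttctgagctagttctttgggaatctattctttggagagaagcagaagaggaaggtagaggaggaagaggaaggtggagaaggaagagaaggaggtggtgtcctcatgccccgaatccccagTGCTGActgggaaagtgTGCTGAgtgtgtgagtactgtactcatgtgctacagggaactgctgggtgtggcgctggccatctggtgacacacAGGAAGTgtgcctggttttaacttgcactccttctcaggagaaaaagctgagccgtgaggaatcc
Ccl8, chr11:82114935-82115234, plus strand: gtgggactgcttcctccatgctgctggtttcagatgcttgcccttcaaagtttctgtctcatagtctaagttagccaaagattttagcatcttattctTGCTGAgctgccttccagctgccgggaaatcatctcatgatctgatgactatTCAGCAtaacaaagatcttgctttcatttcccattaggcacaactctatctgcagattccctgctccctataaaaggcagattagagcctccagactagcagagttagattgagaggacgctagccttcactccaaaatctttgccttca
The Timd4 and Ccl8 windows held 2 MAF motifs each, the Folr2 window shown, of its 2 listed starts, 1 MAF motif and 2 PU.1 cores, and the Fcna window 2 MAF motifs and 1 core. Of 32851 windows in the table, 19.5% held the MAF motif and 9.35% the core. Of 25 genes of the rule or called in the resident list with an entry, 40.0% held the MAF motif and 36.0% the core in at least 1 window, against 21.7% and 10.7% of all 27025 genes. Of the genes not shown, Cd163, Cd209f, Gas6 and Igf1 held neither motif, and Mrc1 held 1 core. A match is a description of letters and not a binding site.

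**Figure D2:**
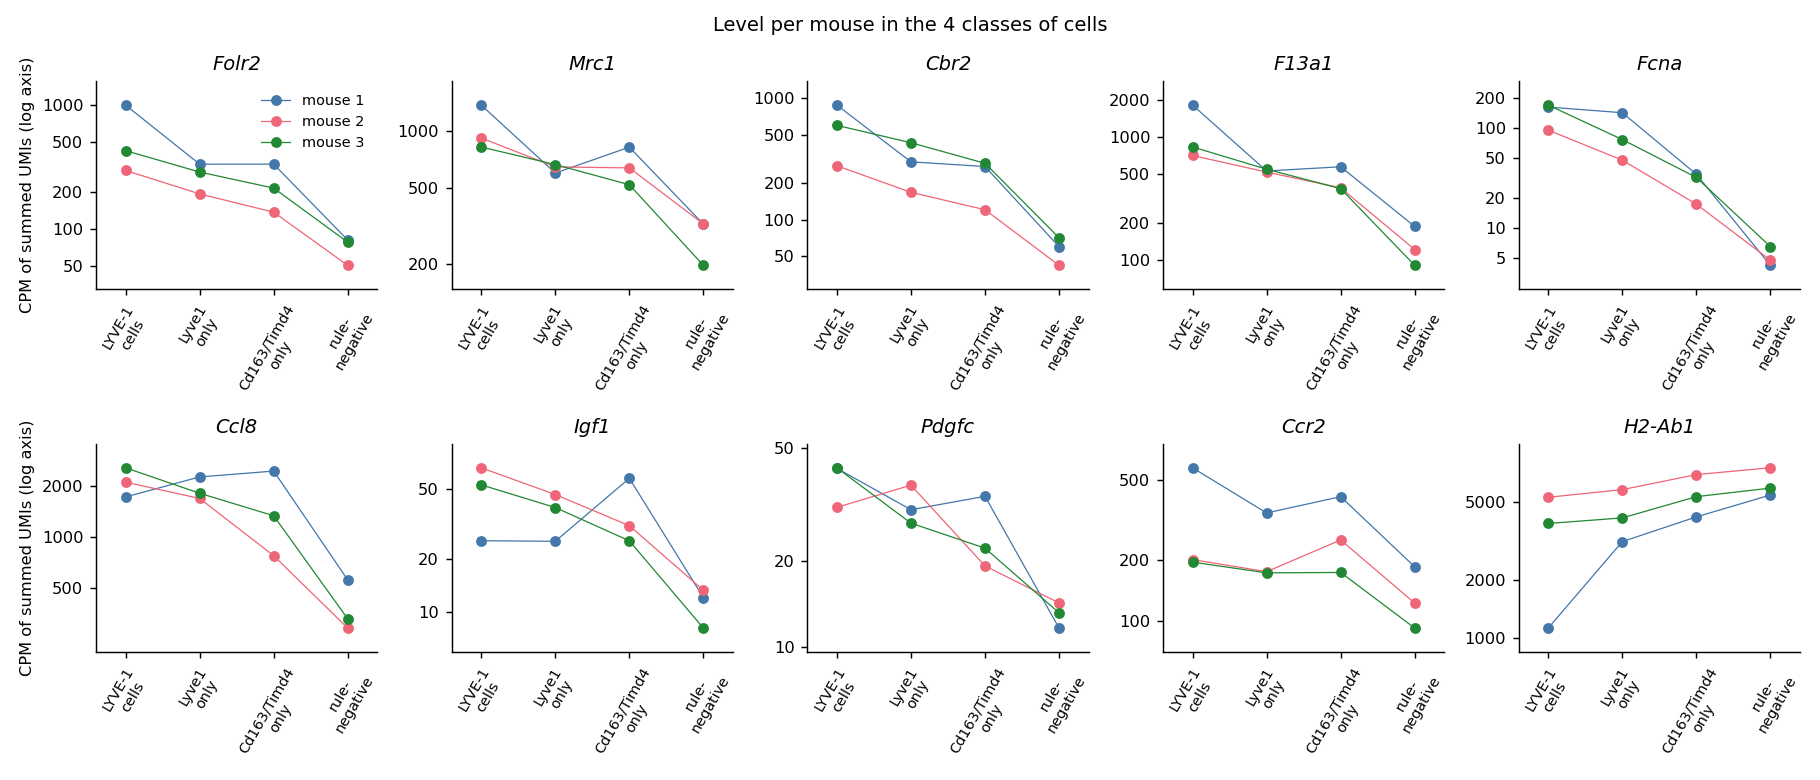
Level per mouse (CPM of summed UMIs, log axis) of 10 genes in LYVE-1 cells, Lyve1-only cells, Cd163/Timd4-only cells and rule-negative cells, with a line for each mouse. Folr2, Mrc1, Cbr2, F13a1, Fcna and Pdgfc lay higher in LYVE-1 cells than in rule-negative cells of every mouse, and H2-Ab1 lay lower.

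Receptors for uptake followed the same direction more often than not: 16 of 28 tested scavenger and lectin receptor genes were higher and 2 lower (median 0.95), and 11 of the 16 higher genes also stood in the resident list, Cd209a, Cd36, Siglec1, Clec4a1 and Clec4a3 being the others. Leaving out mouse 2 gave 13 higher and 1 lower genes, and leaving out mouse 3 gave 10 higher and 1 lower genes. Clec10a, a lectin for galactose and its amino sugars, had 857, 265 and 342 CPM in LYVE-1 cells of mice 1, 2 and 3, against 180.4, 86.7 and 54.1 CPM in rule-negative cells (log2 fold change 2.03 ± 0.29, adjusted p = 0.00404). Cd209a had 119, 27.6 and 38.6 CPM in LYVE-1 cells, against 14.9, 3.30 and 1.67 CPM in rule-negative cells (log2 fold change 3.37 ± 0.70, adjusted p = 0.0194), and its adjusted p was 0.351 without mouse 2 and 0.412 without mouse 3. Siglec1, the sialic acid receptor CD169, differed by 1.28, Cd36 by 1.41 and Colec12 by 1.15, all called. Stab1, a scavenger receptor that carries altered proteins to the lysosome, had 390.3, 318 and 324 CPM in LYVE-1 cells, against 226, 150.5 and 161 CPM in rule-negative cells (log2 fold change 0.92 ± 0.15, adjusted p = 4.12e-04). Clec5a was lower, with 42.4, 83.3 and 79.6 CPM in LYVE-1 cells, against 85.6, 119 and 114 CPM in rule-negative cells (log2 fold change -0.61 ± 0.10, adjusted p = 4.58e-05), and Scarb2 differed by -0.35 ± 0.10, with an adjusted p of 0.185 and 0.216 without mice 2 and 3.

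Of the genes of binding and turnover of hyaluronan, the ligand of LYVE-1, 2 of 13 tested were higher and 1 lower, with a median of 0.31. Over all genes tested, 11.7% were higher and 8.2% lower, so the calls of this list lay near the share of all genes. Leaving out mouse 1 gave 4 higher and 2 lower genes, leaving out mouse 2 gave 2 higher and 2 lower genes, and leaving out mouse 3 gave 1 higher and 0 lower genes. Tmem2, a cell-surface hyaluronidase, had 25.5, 32.9 and 29.3 CPM in LYVE-1 cells, against 14.4, 13.004 and 10.5 CPM in rule-negative cells (log2 fold change 1.36 ± 0.12, adjusted p = 1.91e-09). The other called genes were Hyal2, which cuts hyaluronan at the cell surface (0.66 ± 0.23, adjusted p = 0.0428 by edgeR, 0.164 and 0.608 without mice 2 and 3), and the lysosomal glucuronidase Gusb (-0.52 ± 0.10, adjusted p = 3.56e-04, 0.0623 without mouse 3). Cd44, the main hyaluronan receptor of leukocytes, had 178, 278 and 218 CPM in LYVE-1 cells, against 177, 242 and 148 CPM in rule-negative cells and missed the threshold (log2 fold change 0.31 ± 0.12, adjusted p = 0.0716), and passed it without mouse 1 (0.32).

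Ccl2, Ccl7 and Ccl8, which attract monocytes, were among the chemokines higher in LYVE-1 cells. Of the chemokine list, 7 of 21 tested genes were higher and 4 lower (median 0.19). Leaving out mouse 3 gave 5 higher and 0 lower genes. Ccl8 had 1723, 2106 and 2558 CPM in LYVE-1 cells of mice 1, 2 and 3, against 559, 291 and 329.8 CPM in rule-negative cells (log2 fold change 2.47 ± 0.40, adjusted p = 0.00718). Ccl2, the main ligand of CCR2, had 4396, 1215 and 2601 CPM in LYVE-1 cells, against 584, 425 and 521 CPM in rule-negative cells (log2 fold change 2.10 ± 0.21, adjusted p = 3.00e-05), and Ccl7, another ligand of CCR2, had 3539, 2573 and 2593 CPM in LYVE-1 cells, against 726, 733 and 468 CPM in rule-negative cells (log2 fold change 2.05 ± 0.21, adjusted p = 2.51e-05). These 3 genes lie together on chromosome 11 (chr11:82035571-82037453, chr11:82045712-82047525 and chr11:82115185-82116799), and each was higher in LYVE-1 cells within every mouse. Ccl12 of the same cluster differed by 0.82 without passing the test (adjusted p = 0.313 by edgeR).

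Ccl24, an attractant of eosinophils, had 339, 298 and 132 CPM in LYVE-1 cells, against 40.8, 51.8 and 16.1 CPM in rule-negative cells (log2 fold change 2.75 ± 0.12, adjusted p = 1.07e-12). Pf4, platelet factor 4, had 2520.3, 946 and 921 CPM in LYVE-1 cells, against 445, 224 and 166 CPM in rule-negative cells (log2 fold change 2.19 ± 0.19, adjusted p = 1.16e-05), Ccl6 differed by 2.31 ± 0.39 and Ccl9 by 1.40. The calls of Ccl8 and Ccl6 were lost without mouse 3, with adjusted p of 0.240 and 0.193, as was that of Ccl9 (0.217). The lower genes were Cxcl14 (-1.10 ± 0.22), Cxcl16 (-0.69 ± 0.20), Ccl22 (-0.63 ± 0.19) and Cxcl9 (-0.60 ± 0.19), and without mouse 3 their adjusted p was 0.0689, 0.167, 0.594 and 0.151. Cxcl9, an interferon-induced attractant of T cells, had 0, 22.3 and 7.79 CPM in LYVE-1 cells, against 3.04, 33.8 and 10.4 CPM in rule-negative cells, and in cells of 10000 to 40000 UMIs its difference was 0.35 (adjusted p = 0.589 by edgeR). Without mouse 2 its adjusted p was 0.284. Ccl3, Ccl4, Cxcl1 and Cxcl2 differed by -0.33, -0.19, 0.04 and 0.19 and were not called, while Ccl3 passed without mouse 2 (-0.55) and Cxcl1 without mouse 1 (0.25). Without mouse 2 Ccl22 differed by -1.06.

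Some growth factors were higher in LYVE-1 cells and the main angiogenic factor was not among them. Of the growth and angiogenic factors, 5 of 21 tested genes were higher and 0 lower (median 0.01). Igf1, insulin-like growth factor 1, had 25.5, 66.4 and 53.0 CPM in LYVE-1 cells of mice 1, 2 and 3, against 12.1, 13.3 and 8.08 CPM in rule-negative cells (log2 fold change 2.47 ± 0.21, adjusted p = 1.65e-05). Pdgfc, a ligand of the PDGF receptors on fibroblasts and mural cells, had 42.4, 30.9 and 42.6 CPM in LYVE-1 cells, against 11.6, 14.2 and 13.1 CPM in rule-negative cells (log2 fold change 1.45 ± 0.15, adjusted p = 9.91e-07). Hbegf, an EGF receptor ligand, differed by 2.01 (adjusted p = 7.17e-04 by edgeR). Vegfa, the endothelial growth factor, had 25.5, 117 and 110.0 CPM in LYVE-1 cells, against 121, 111 and 123 CPM in rule-negative cells (log2 fold change -0.14 ± 0.16, adjusted p = 0.592), and the classes overlapped. Pdgfa, Pdgfb, Vegfb and Pgf differed by -0.16, -0.10, -0.07 and -0.21 and were not called. Osm was higher by 0.70 ± 0.12. Il6 was higher by 1.00 ± 0.22 (adjusted p = 0.00172), with 42.4, 17.5 and 5.28 CPM in LYVE-1 cells, against 2.71, 9.16 and 2.67 CPM in rule-negative cells, and in cells of 10000 to 40000 UMIs the difference was 0.03 (adjusted p = 0.977).

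Genes of haem breakdown and iron traffic, the route that starts with the uptake of haemoglobin by CD163, moved in part. Of the haem and iron list, 10 of 24 tested genes were higher and 1 lower (median 0.18). The mean of per-cell CPM tested with limma gave 2 higher and 1 lower. Leaving out mouse 2 gave 8 higher and 2 lower genes, and leaving out mouse 3 gave 5 higher and 1 lower genes. Tfrc, the transferrin receptor, had 25.5, 18.5 and 20.5 CPM in LYVE-1 cells of mice 1, 2 and 3, against 4.99, 2.79 and 2.83 CPM in rule-negative cells (log2 fold change 2.69 ± 0.18, adjusted p = 4.29e-12). Hmox1, the haem oxygenase that opens the haem ring, had 1578, 472 and 649.9 CPM in LYVE-1 cells, against 253, 225 and 273 CPM in rule-negative cells (log2 fold change 1.43 ± 0.26, adjusted p = 0.00900), and mouse 1 stood highest among LYVE-1 cells. Blvrb, which reduces biliverdin, differed by 0.40 (adjusted p = 0.0102, 0.480 and 0.596 without mice 2 and 3). Slco2b1, Slc39a14 and Steap3, which encode transporters and an iron reductase, differed by 0.64 ± 0.12, 0.72 ± 0.11 and 0.86 ± 0.13. Without mouse 3 the adjusted p of these last 3 genes was 0.0837, 0.0828 and 0.0560. Cp, ceruloplasmin, which oxidizes iron, was higher by 1.47 ± 0.17. The iron exporter ferroportin, Slc40a1, differed by 0.50 and was not called (adjusted p = 0.114 by edgeR), with 0.089 (adjusted p = 0.909) without mouse 2 and 0.97 (adjusted p = 0.0343) without mouse 3. Fth1, the ferritin heavy chain that stores iron, was lower, with 10751, 12871 and 12929 CPM in LYVE-1 cells, against 16721, 14238 and 16188 CPM in rule-negative cells (log2 fold change -0.49 ± 0.15, adjusted p = 0.0196, 0.203 without mouse 3), and the difference was -0.30 without mouse 1.

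Genes for the clearance of dying cells moved in both directions. Of the efferocytosis list, 8 of 20 tested genes were higher and 3 lower (median -0.03). The mean of per-cell CPM tested with limma gave 2 higher and 2 lower. Leaving out mouse 3 gave 3 higher and 1 lower genes. The bridging ligand Gas6, which links phosphatidylserine to TAM receptors, had 492, 230.2 and 368 CPM in LYVE-1 cells of mice 1, 2 and 3, against 119.8, 61.8 and 96.7 CPM in rule-negative cells (log2 fold change 1.82 ± 0.13, adjusted p = 2.55e-08). Pros1, the other such ligand, differed by 0.70 ± 0.13 and the receptor Mertk by 0.47 ± 0.11, with adjusted p of 0.0911 and 0.0665 without mouse 3. The receptor Axl differed by -0.50 and was not called. Mfge8, a bridging ligand for integrins, was lower (-0.81 ± 0.24), and its adjusted p was 0.141 without mouse 1 and 0.294 without mouse 2, with a difference of -1.35 without mouse 3.

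Of the complement list, 6 of 14 tested genes were higher and 1 lower (median 0.15). Leaving out mouse 3 gave 5 higher and 0 lower genes. C4b had 169.7, 259.7 and 262 CPM in LYVE-1 cells, against 29.9, 59.4 and 70.8 CPM in rule-negative cells (log2 fold change 1.99 ± 0.13, adjusted p = 8.73e-10). Properdin, Cfp, differed by 1.26 ± 0.11 and C3 by 0.76. The first component subunit C1qa had 3751, 6255 and 6901 CPM in LYVE-1 cells, against 5777, 6929 and 7369 CPM in rule-negative cells (log2 fold change -0.41 ± 0.14, adjusted p = 0.0380), with -0.19, -0.52 and -0.53 (adjusted p of 0.0758, 0.0639 and 0.186) without mice 1, 2 and 3. Its partners C1qb and C1qc differed by -0.21 and -0.20 and were not called.

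Genes of antigen presentation by MHC class II were lower where they passed the test: 0 of 12 tested genes of the list were higher and 6 lower, with a median of -0.66. Leaving out mouse 3 gave 0 higher and 1 lower genes. H2-Ab1, a chain of the class II molecule, had 1129, 5277 and 3876 CPM in LYVE-1 cells of mice 1, 2 and 3, against 5423, 7472 and 5880.3 CPM in rule-negative cells. The levels of LYVE-1 cells lay below those of rule-negative cells in each mouse, most so in the 7 cells of mouse 1, and missed the threshold (log2 fold change -1.09 ± 0.36, adjusted p = 0.0822). Without mouse 1 the difference was -0.62 and passed (adjusted p = 1.73e-05), as did that of Cd74, the invariant chain (-0.58 without mouse 1, adjusted p = 5.50e-05, and -1.07 ± 0.32, adjusted p = 0.0541, with all mice). Without mouse 2 both passed too, at -1.44 and -1.41. The protease Ctss, which trims the invariant chain, had 2045, 2716 and 3675 CPM in LYVE-1 cells, against 4097, 3986 and 5316 CPM in rule-negative cells (log2 fold change -0.79 ± 0.14, adjusted p = 1.41e-04). H2-DMb1, which helps to load peptides, differed by -0.64 ± 0.15 and H2-Eb1 by -0.46 ± 0.11, with adjusted p of 0.0639 and 0.143 without mouse 3.

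Of the inflammatory genes, 1 of 19 tested, Il6, was higher and 0 were lower (median -0.01), and 18 did not pass the test. Leaving out mouse 1 gave 3 higher and 2 lower genes, leaving out mouse 2 gave 1 higher and 3 lower genes, and leaving out mouse 3 gave 1 higher and 1 lower genes. Il1b had 1935, 4999.6 and 3087 CPM in LYVE-1 cells, against 5519, 6008 and 4048 CPM in rule-negative cells and missed the threshold (log2 fold change -0.72 ± 0.32, adjusted p = 0.168), with -0.39 (adjusted p = 0.00171) without mouse 1 and -0.99 (adjusted p = 1.38e-04) without mouse 2. Tnf and Nlrp3 differed by -0.54 and -0.09 and were not called, and Tnf passed without mouse 2 (-0.80). Of the genes of lipid-associated macrophages, 1 of 19 tested were higher and 7 lower (median -0.41). Leaving out mouse 2 gave 2 higher and 7 lower genes, and leaving out mouse 3 gave 0 higher and 0 lower genes. Trem2, the lipid receptor that defines them, had 509, 525 and 776 CPM in LYVE-1 cells, against 709, 662 and 906 CPM in rule-negative cells (log2 fold change -0.41 ± 0.12, adjusted p = 0.0166, 0.114 and 0.175 without mice 2 and 3). Cd9 differed by -0.90 ± 0.20, Apoe by -0.53 and Lgals3 by -0.46, all lower, while the protease Ctsl was higher by 0.92 ± 0.26 and was 0.59 without mouse 1. Spp1, osteopontin, was not called (-0.88) and passed without mouse 1 (-0.51) or mouse 2 (-1.32). Without mouse 3 the adjusted p of Cd9, Apoe, Lgals3 and Ctsl was 0.356, 0.121, 0.331 and 0.107, and without mouse 2 that of Lgals3 was 0.264.

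Genes of recently recruited monocytes moved in both directions, with more of them higher than lower in LYVE-1 cells. Of the monocyte list, 7 of 15 tested genes were higher and 2 lower (median 0.43). Values of the 2 lower genes are not given here. The summed level of the list, as a mean of 3 mice, was 2833 CPM in LYVE-1 cells and 1870 CPM in rule-negative cells. It was also high in the neighbouring classes, at 2974 CPM in Lyve1-only cells and 2970 CPM in Cd163/Timd4-only cells. Leaving out mouse 1 gave 6 higher and 4 lower genes, leaving out mouse 2 gave 6 higher and 0 lower genes, and leaving out mouse 3 gave 5 higher and 0 lower genes. Ccr2, the receptor by which monocytes leave the marrow, had 577, 201 and 196 CPM in LYVE-1 cells of mice 1, 2 and 3, against 185, 122 and 91.8 CPM in rule-negative cells (log2 fold change 0.94 ± 0.11, adjusted p = 1.60e-07). S100a4 had 653, 411 and 382 CPM in LYVE-1 cells, against 263, 249 and 184 CPM in rule-negative cells (log2 fold change 0.87 ± 0.13, adjusted p = 1.48e-05). Fn1, fibronectin, was higher by 0.91 ± 0.19, with 0.70 (adjusted p = 0.0890) without mouse 1. Ly6c2, the marker of classical monocytes, and Cx3cr1, the fractalkine receptor, differed by 0.39 and -0.31 and were not called.

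Proliferation genes were lower where they passed the test. Of the cell cycle list, 0 of 26 tested genes were higher and 17 lower (median -0.62). Mki67, the proliferation marker Ki-67, had 25.5, 124 and 56.8 CPM in LYVE-1 cells, against 63.7, 162 and 86.2 CPM in rule-negative cells (log2 fold change -0.62 ± 0.13, adjusted p = 0.00345, 0.0662 without mouse 3). Cdk1, the kinase that starts mitosis, had 0, 10.2 and 17.8 CPM in LYVE-1 cells, against 20.5, 18.9 and 32.6 CPM in rule-negative cells (log2 fold change -0.95 ± 0.19, adjusted p = 0.00253, 0.0523 without mouse 3), with 0 UMIs in LYVE-1 cells of mouse 1. Leaving out mouse 3 gave 2 lower genes of the list, and the mean of per-cell CPM tested with limma gave 1. Of the mixed hypoxia and glycolysis list, 11 of 22 tested genes were lower and 1 was higher (median -0.48). Leaving out mouse 1 gave 2 higher and 12 lower genes, leaving out mouse 2 gave 0 higher and 9 lower genes, and leaving out mouse 3 gave 0 higher and 2 lower genes. The mean of per-cell CPM gave 0 higher and 0 lower. Gapdh, a glycolytic enzyme, stood at 1426, 1052 and 1056 CPM in LYVE-1 cells, against 2135, 1331 and 1392 CPM in rule-negative cells (log2 fold change -0.56 ± 0.14, adjusted p = 0.00515, 0.0817 without mouse 3) and Slc2a1, the glucose transporter, differed by -0.58 ± 0.12 (0.183 without mouse 3). Of the interferon list, 2 of 18 tested genes were higher and 1 lower (median -0.12). Leaving out mouse 3 gave 2 higher and 0 lower genes. Ifitm3, an antiviral membrane protein, had 3275, 1021 and 906 CPM in LYVE-1 cells, against 646, 401 and 279.8 CPM in rule-negative cells (log2 fold change 1.65 ± 0.13, adjusted p = 5.85e-10).

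Transcription factors of macrophages were higher or not called: 16 of 31 tested genes were higher and 0 lower (median 0.28). Leaving out mouse 1 gave 18 higher and 2 lower genes, leaving out mouse 2 gave 13 higher and 1 lower genes, and leaving out mouse 3 gave 7 higher and 0 lower genes. Maf had 492, 328 and 289 CPM in LYVE-1 cells of mice 1, 2 and 3, against 169.7, 133 and 124 CPM in rule-negative cells (log2 fold change 1.23 ± 0.16, adjusted p = 1.98e-04). Klf4 had 449.7, 201 and 393 CPM in LYVE-1 cells, against 71.0, 79.6 and 159 CPM in rule-negative cells (log2 fold change 1.40 ± 0.14, adjusted p = 1.47e-06). Id3, Tfec and Irf4 were higher by 1.07 ± 0.27, 1.43 ± 0.20 and 1.06 ± 0.14, with an adjusted p of 0.349 for Id3 without mouse 3. Spi1, which encodes PU.1, differed by -0.13 and was not called. Genes that respond to tissue digestion moved the same way: 11 of 25 tested genes of the dissociation stress list were higher and 0 lower (median 0.43). Leaving out mouse 1 gave 17 higher and 0 lower genes, and leaving out mouse 3 gave 4 higher and 0 lower genes. The summed level of the list was 16341 to 21656 CPM over the mice in LYVE-1 cells, against 12861 to 14117 CPM in rule-negative cells. Zfp36 stood at 1307, 377 and 693 CPM in LYVE-1 cells, against 519, 231 and 428 CPM in rule-negative cells (log2 fold change 0.75 ± 0.11, adjusted p = 6.40e-06) and Ier3 higher by 0.78 ± 0.11. The part of digestion in the levels of Klf4, Ccl2 and other induced genes was not tested.

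**Figure D3:**
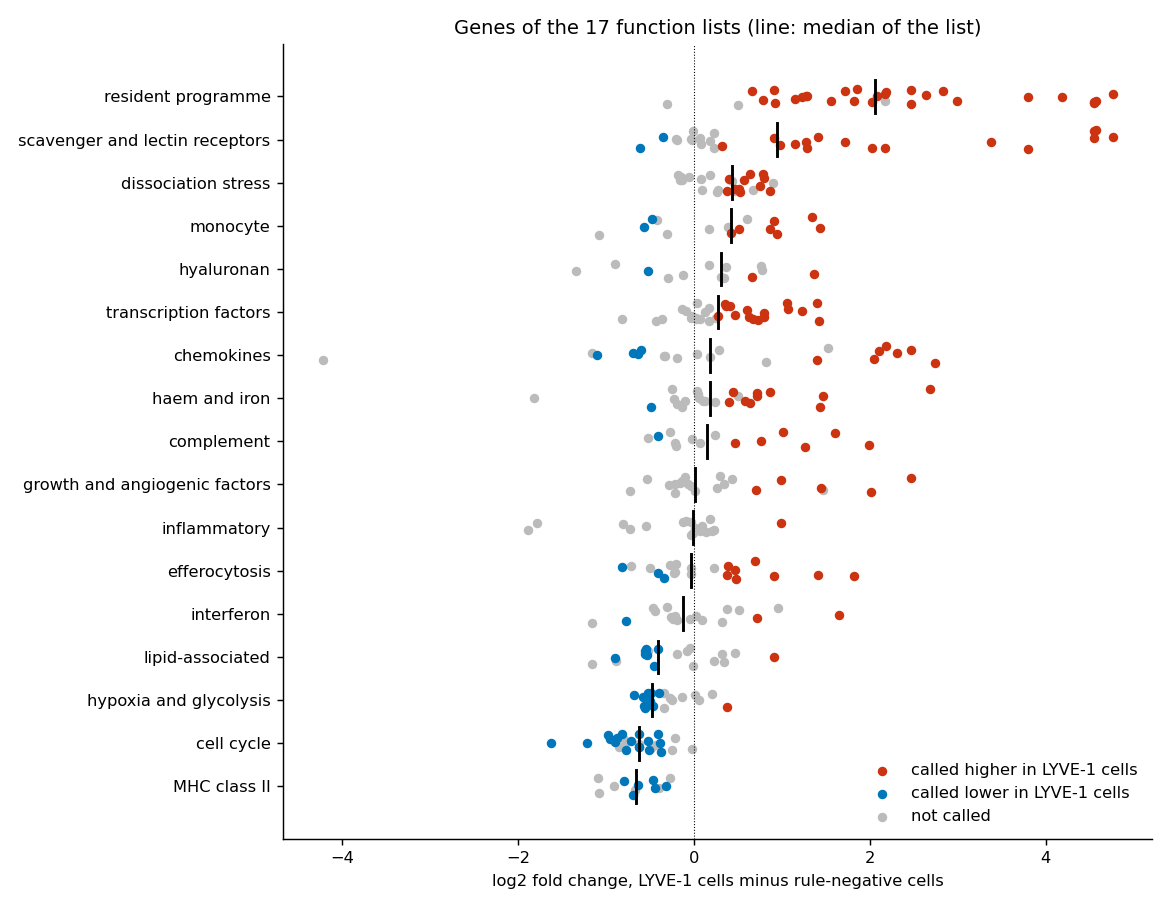
Log2 fold change of LYVE-1 cells minus rule-negative cells (x axis) for the tested genes of 17 function lists (rows, ordered by their median), with genes called higher in red, lower in blue and not called in grey, and the median as a line. The resident programme has the highest median, 2.06, and MHC class II the lowest, -0.66, against -0.02 over all tested genes.

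Outside the lists, genes were ranked by their called difference where the mean of the 3 mice was 50 CPM or more in the higher class. The largest included Gja1, the gap junction protein connexin 43, with 153, 6.30 and 32.7 CPM in LYVE-1 cells of mice 1, 2 and 3, against 6.52, 0.699 and 2.05 CPM in rule-negative cells (log2 fold change 3.81 ± 0.23, adjusted p = 4.29e-12). Its level in LYVE-1 cells ranged widely, and its mean reached 50 CPM only through the 7 cells of mouse 1. Fxyd2, a regulator of the sodium pump, had 59.4, 62.4 and 62.7 CPM in LYVE-1 cells, against 5.65, 6.52 and 5.13 CPM in rule-negative cells (log2 fold change 3.43 ± 0.15, adjusted p = 2.12e-12), with close levels in the 3 mice. Rcn3, Hal, which breaks down histidine, Fgfr1, a fibroblast growth factor receptor, Tmem8, Lrg1 and Gda, which deaminates guanine, were higher by 3.48 ± 0.24, 2.70 ± 0.34, 2.69 ± 0.33, 2.69 ± 0.12, 2.17 ± 0.52 and 2.04 ± 0.26. The adjusted p was 0.221 for Hal without mouse 3, and 0.136 and 0.584 for Lrg1 without mice 1 and 3. Among the lower genes, Cd207, the lectin langerin, had 0, 33.1 and 36.6 CPM in LYVE-1 cells, against 78.2, 125 and 109 CPM in rule-negative cells (log2 fold change -1.93 ± 0.34, adjusted p = 0.0105, 0.278 and 0.311 without mice 2 and 3). Bcl2a1d, of a family of survival genes with near copies, had 16.97, 44.9 and 21.4 CPM in LYVE-1 cells, against 101, 80.0 and 44.9 CPM in rule-negative cells (log2 fold change -1.11 ± 0.13, adjusted p = 1.22e-06). Rnf121, Glipr1 and Rgs1, which dampens chemokine receptor signalling, differed by -1.05 ± 0.12, -0.95 ± 0.16 and -1.26 ± 0.30 (adjusted p of Rgs1 0.0786 without mouse 3). Wfdc18, AY036118 and Hist1h1b differed by -1.43 ± 0.34, -1.62 ± 0.27 and -1.003 ± 0.28, and without mouse 1 their adjusted p was 0.0673, 0.0742 and 0.0859. Wfdc18 differed by 0.77 when cells with genes of other lineages were left out.

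Since LYVE-1 cells held more UMIs, the comparison was repeated in cells of 10000 to 40000 UMIs. Median depths in this window were 17589, 17898 and 22228 UMIs in LYVE-1 cells of mice 1, 2 and 3. In rule-negative cells they were 17621, 15605 and 13713 UMIs, so LYVE-1 cells of mice 2 and 3 remained deeper. In the window 874 genes were higher and 543 lower, of 9720 tested. Of 118 named genes compared, 116 kept their sign and 103 had a larger log2 fold change in size, and 83 of the 108 called with all cells were called there. Calls missing in the window included those of Fn1, S100a4, Cd207, Rgs1, Mfge8, C1qa, H2-Eb1 and H2-DMb1, with 0.63, 0.98, -2.01, -1.46, -0.57, -0.45, -0.55 and -0.91 on the log2 scale. The resident programme had 27 higher genes there, the cell cycle list 16 lower and MHC class II 3 lower. Folr2 differed by 3.13, Fcna by 5.20, Igf1 by 2.92 and Mki67 by -1.28. Expected detection was also computed at 5000 UMIs per cell. This leaves out 21 of 474 LYVE-1 cells and 1127 of 8204 rule-negative cells, which are shallower. Folr2 had a UMI in 80.8% of LYVE-1 cells, against 19.8% of rule-negative cells, at this depth (97.3% and 28.9% at full depth). The share for Fcna was 46.2% and 2.44% (78.1% and 5.11% at full depth), and for Ednrb 56.2% and 2.97% (82.9% and 5.35%). Adgre1 of the gate had 74.6% and 71.6% (92.4% and 84.1%). Mki67 had 17.3% and 18.2% (39.0% and 25.4%), and in mouse 2 its share at 5000 UMIs was the higher in LYVE-1 cells, with 28.5% against 23.7%. In the epithelium-like cells, of which 13 had 5000 UMIs, the shares were 0.438% for Folr2 and 0% for Fcna and Ednrb. These 13 cells are too few to set the 0% below the shares of rule-negative cells.

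**Figure D4:**
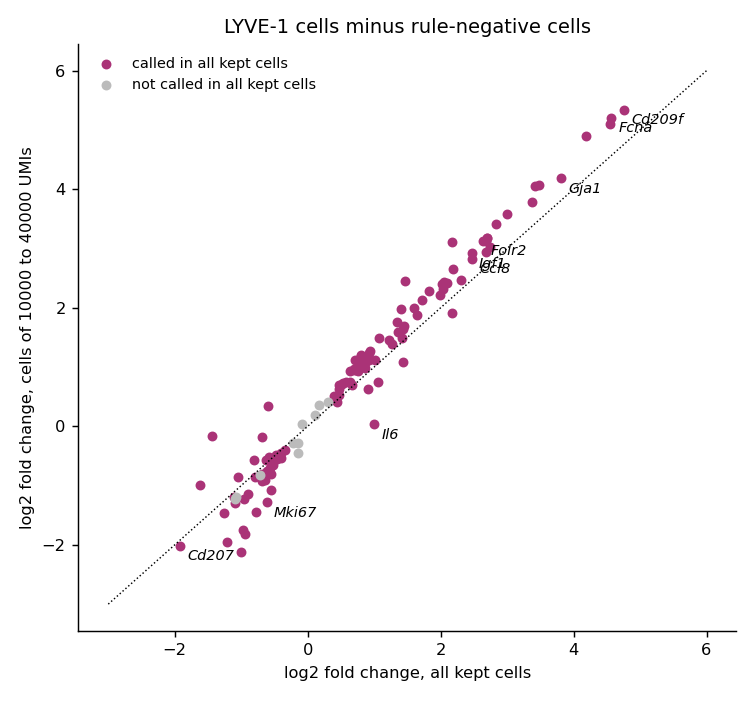
Log2 fold change of LYVE-1 cells minus rule-negative cells of 118 named genes, in all kept cells (x axis) and in cells of 10000 to 40000 UMIs (y axis), with the line of equal values dotted. Of these genes 116 had the same sign and 103 a larger difference in size in the window, and Il6 lay near 0 there (0.03).

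LYVE-1 cells were next set against the cells that met 1 side of the rule only. Against Lyve1-only cells (6, 34 and 209 cells of mice 1, 2 and 3) 3 genes were higher (0.0274% of 10942) and 0 lower by edgeR, with 590 genes at an unadjusted p under 0.05. DESeq2's Wald test called 1. The 3 genes were Ccl24 (1.11 ± 0.14, adjusted p = 0.00160), Clec3b, which encodes tetranectin (2.45 ± 0.40, adjusted p = 0.00725), and Fcna (0.98 ± 0.16, adjusted p = 0.0150). Ccl24 had 339, 298 and 132 CPM in LYVE-1 cells, against 172, 169 and 46.6 CPM in Lyve1-only cells. Fcna had 161, 94.9 and 169 CPM, against 142, 47.6 and 76.4 CPM in Lyve1-only cells. Folr2 had 1001, 297 and 429 CPM, against 334, 192 and 288 CPM in Lyve1-only cells, and missed the threshold (0.74 ± 0.14, adjusted p = 0.0799 by edgeR). The number of calls was 9, 41 and 11 without mice 1, 2 and 3, and few calls do not show that these classes are alike. Without mouse 3 the adjusted p of Ccl24, Clec3b and Fcna was 0.101, 0.784 and 0.872, and without mouse 1 that of Ccl24 was 0.438.

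Against Cd163/Timd4-only cells (65, 258 and 499 cells) 60 genes were higher in LYVE-1 cells (0.548%) and 14 lower (0.128%), together 0.676% of the genes tested. All 60 were also higher against rule-negative cells, a comparison with the same LYVE-1 cells. Fcna had 161, 94.9 and 169 CPM in LYVE-1 cells, against 34.4, 17.3 and 32.0 CPM in Cd163/Timd4-only cells (2.32 ± 0.14, adjusted p = 3.52e-09). Folr2 had 1001, 297 and 429 CPM, against 334, 137 and 214 CPM in Cd163/Timd4-only cells (1.04 ± 0.13, adjusted p = 3.48e-04). The 2 classes overlapped across mice and LYVE-1 cells were the higher within each mouse. Clec3b, Tfrc, Cbr2, F13a1, Gas6 and Klf4 differed by 4.49, 1.58, 1.10, 1.07, 0.75 and 0.77 on the log2 scale. The lower genes included Cxcl9 (-1.29 ± 0.19, adjusted p = 0.00139), the leukotriene receptor Ltb4r1 (-1.14 ± 0.16, adjusted p = 1.37e-04), Cd69 (-0.90 ± 0.19, adjusted p = 0.0263) and H2-Eb1 (-0.49 ± 0.11, adjusted p = 0.0196). Without mouse 3 the adjusted p of Cxcl9 was 0.0798, that of Cd69 was near 1, and without mouse 2 that of Ltb4r1 was 0.170. In cells of 10000 to 40000 UMIs Cxcl9 differed by 1.05 (adjusted p = 0.453). The calls numbered 177 without mouse 1 and 29 without mouse 3.

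Within LYVE-1 cells, levels followed the number of Lyve1 UMIs, which is given as a description since Lyve1 chose the cells. Median depths were close, at 21992, 21691 and 20664 UMIs in cells with 1, 2 to 4 and 5 or more Lyve1 UMIs. Over these cells, Folr2 stood at 249, 350.3 and 515 CPM, Fcna at 57.4, 107 and 234 CPM and Cbr2 at 344, 464 and 584 CPM. Folr2, Fcna and Cbr2 had this order in mice 2 and 3 each. H2-Ab1 ran the other way in the sum over mice, at 5201, 4371 and 3806 CPM, and in mouse 3 its last value, 3586 CPM, lay above the one before, 3529 CPM. Ccr2 had 209.8, 206 and 191 CPM and Ccl8 2144, 2705 and 2235 CPM.

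**Figure D5:**
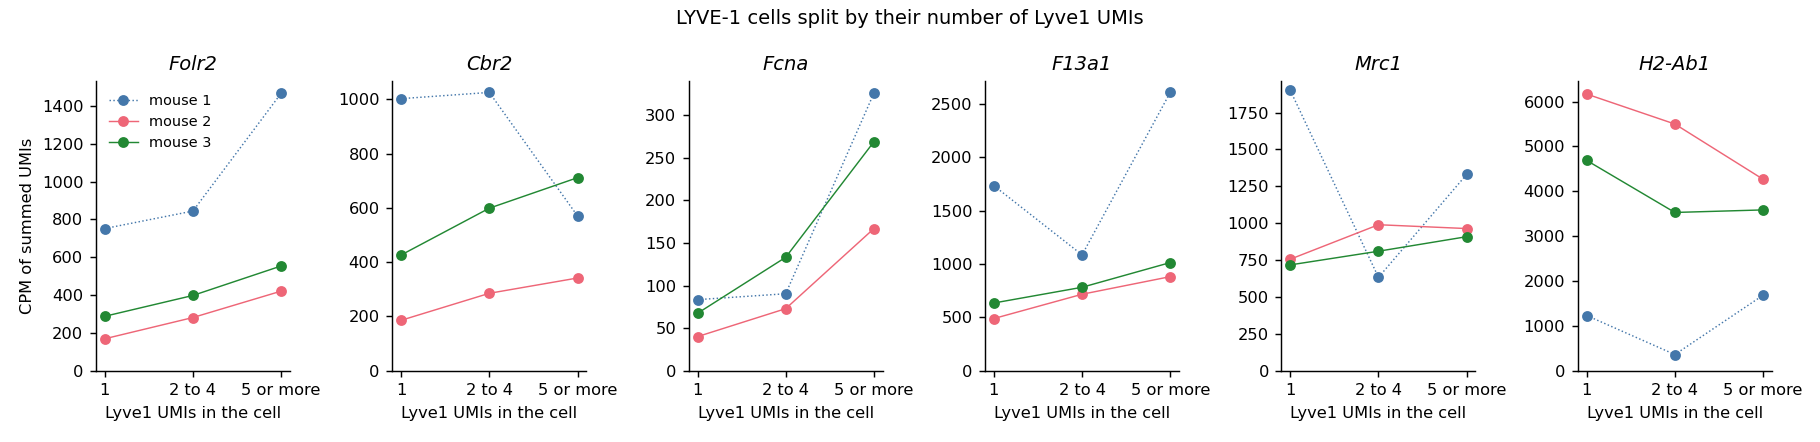
Level per mouse (CPM of summed UMIs) of 6 genes in LYVE-1 cells with 1, 2 to 4 and 5 or more Lyve1 UMIs, with a line for each mouse. Mouse 1 is dotted since it has 3, 1 and 3 cells. Folr2, Fcna, Cbr2 and F13a1 are higher with more Lyve1 UMIs in mice 2 and 3.

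Timd4 was found in 5 of 7, 79 of 123 and 157 of 344 LYVE-1 cells. In mice 2 and 3, Folr2 had 300.3 and 452 CPM with Timd4, against 289.6 and 409 CPM without, Fcna 99.3 and 202 CPM with Timd4, against 85.5 and 138 CPM without and Cbr2 272 and 570.5 CPM with Timd4, against 287 and 618 CPM without. Ccr2 had 199.9 and 196 CPM with Timd4, against 205 and 196 CPM without, and H2-Ab1 5166 and 4064 CPM with Timd4, against 5518 and 3702 CPM without. LYVE-1 cells with Timd4 were deeper, with medians of 44052 and 20658 UMIs against 33731 and 15099 UMIs without it. These values describe the cells, and no test was made of them because Timd4 belongs to the rule.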

How the data were processed

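UMI counts were deposited by the authors as a gene by barcode matrix for each of 3 mice. They were made with Cell Ranger 3.0.2 and the mm10 build, per the submitters' processing notes; the annotation version is not given in the sources used here. All 3 libraries were used, and 0 columns were left unused. The libraries held 1074, 2470 and 7429 barcodes with 12454677, 41097369 and 86178419 UMIs. The filters kept 663, 2108 and 6978 cells with median UMIs of 15014, 13600 and 9318.5. No clustering and no doublet caller were run.

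UMIs were summed per mouse and class of cells (12 sums of 4 classes). All sums were fitted together with edgeR 4.0.16 in R 4.3.3 (filterByExpr, TMM, robust quasi-likelihood test) with the mouse as a block, since the classes of a mouse come from the same animal and library. P-values were adjusted by Benjamini-Hochberg over all genes tested. With the mouse as a block, they rest on how differences between classes varied over the 3 mice, estimated from all 12 sums. The steps were tested on simulated data. Alternatives were DESeq2 1.42.0, limma 3.58.1 on the log2 of the mean of per-cell CPM with a pseudocount of 1 CPM, other filters on cells and genes, and leaving out each mouse. Intervals are exact Clopper-Pearson at 95% (scipy 1.17.1), and a count of 0 was given an upper limit of 3 counts.

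The cells and the 17 gene lists, with 352 of 354 listed genes in the files, were chosen with earlier results of these data known. From each list, up to 6 called higher and 4 called lower genes with the same direction in all mice were named. Outside the lists, up to 8 in each direction were named, at a mean over the mice of 50 CPM or more in the higher class. Some genes were named whatever their result, and further genes of the lists were named after their values were seen. Clec7a and Ifi30 were not analysed here. Gene positions come from GENCODE M21 and promoters from RefSeq.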

Additional observations from a re-analysis of the deposited data

Results flagged for a closer look

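Outside the cell filters, 4 of the 362 barcodes of mouse 2 that were left out met the rule of LYVE-1 cells (1.10%), above the 0.829% that a count of 0 allows. Their median mitochondrial share was 24.3% and their median depth 2722 UMIs. In the other mice, 0 of 411 and 1 of 451 such barcodes met the rule. These barcodes entered no comparison.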

How the results depend on the processing

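The numbers of genes called against rule-negative, Lyve1-only and Cd163/Timd4-only cells were 2172, 3 and 74, and they moved by over 1.5 times under several settings; the cause was not tested. Without the mouse as a replicate block they were 121 (117 higher and 4 lower), 0 and 1. DESeq2's Wald test gave 1356, 1 and 38. Leaving out cells with other-lineage UMIs and the cells with the most UMIs gave 481 (242 higher and 239 lower), 23 and 118, with 4273 genes tested, and lowered the mean share of LYVE-1 cells to 1.14%. Only 1, 8 and 38 LYVE-1 cells of mice 1, 2 and 3 remained in that setting. Against rule-negative cells, a window of 10000 to 40000 UMIs gave 1417 calls and the mean of per-cell CPM with limma 292 (234 higher and 58 lower). By list, the per-cell mean gave 21 higher genes of the resident programme, 8 scavenger and lectin receptors and 8 transcription factors. Each was fewer than in the main test, while the chemokine list had 8 higher and MHC class II 6 lower. Against Lyve1-only cells, DESeq2 size factors gave 6, no filter on low counts 134, at most 8% mitochondrial UMIs 5, at least 2 Lyve1 UMIs 17, the rule read at 5000 UMIs 53, the UMI window 6 and leaving out cells with defining genes of other lineages, a setting chosen after seeing the data, 6. Against Cd163/Timd4-only cells, no filter gave 282, at least 2 Lyve1 UMIs 140 and the rule at 5000 UMIs 147. Leaving out a mouse gave 411 to 2599, 9 to 41 and 29 to 177 calls, and a mean share of 2.99 to 5.38%.

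Of 2245 values of 138 named results under the alternatives, 1794 were counted as the same, 410 lost the call, 28 gained one and 11 turned. Another 2 changed sign without a call by at least the standard error. Values counted as the same kept direction and side of the threshold, or changed sign without a call by less than the standard error. Without the block 101 calls were lost and without mouse 3 62. With cells with other-lineage UMIs and most UMIs left out, Mertk was -0.18, Fn1 -0.32, Nr4a1 -0.074, AY036118 0.33, Hist1h1b 0.38 and Mki67 0.12. These 6 values rest on 1, 8 and 38 LYVE-1 cells of mice 1, 2 and 3. With the rule at 5000 UMIs, Fn1 was -0.038 and Cxcl9 0.98. In the UMI window Cxcl9 was 0.35, and 1.05 against Cd163/Timd4-only cells. Without cells with defining genes of other lineages Wfdc18 was 0.77 (adjusted p = 0.00115). Mouse 1, with 7 LYVE-1 cells and 117845 UMIs, limits what low genes can show.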
